A study of Mus musculus with 3 samples.

Results

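Interferon-stimulated genes are the genes that cells switch on when interferon binds its receptors, and 46 of them were followed among the 24698 genes counted in cultured mouse testis cells on days 4, 7 and 14 of an in vitro Leydig differentiation. The 46 genes were named members of the interferon response and were chosen by measured values as well, because the high day 4 level of many of them was known when the group was put together. The excess on day 4 is therefore given below as a description, with no test. Of the 46 members, 27 that are induced mainly through type I interferon and are rarely used for other purposes are called the classical members.

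The cells came from the testes of C57BL/6 mice aged 8 to 12 weeks and were sorted as Sca1+/cKit-, so they carried the stem cell antigen Sca1 and lacked the receptor cKit. After 18 h of recovery in medium with 10% FBS, they were expanded for 3 days with PDGFAA, PDGFBB and FGF2 at 10 ng/ml each and with 0.5 µM SAG, a hedgehog pathway agonist, and for differentiation LiCl2 at 5 mM and DAPT at 10 µM, an inhibitor of Notch signalling, were supplied in addition. The day 4 library followed expansion, and the day 7 and day 14 libraries followed time in differentiation medium. Day and medium therefore change together, and the 2 cannot be told apart here. No interferon was among the listed additions. Each day was 1 Drop-seq library, a droplet assay that counts unique molecular identifiers (UMIs) near transcript 3′ ends. With 1 library per day there was no replicate, so no p-value is given. The intervals below are exact 95% intervals that cover counting error only.

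The merged table held 2980 cell barcodes on day 4, 2171 on day 7 and 973 on day 14, with 12677110, 11627440 and 5324400 UMIs and medians of 2886.5, 3285 and 3272 UMIs per barcode. The libraries shared no barcode. Within a library, 43.8% of day 4 barcodes, 47.3% of day 7 barcodes and 51.8% of day 14 barcodes matched another barcode in the first 11 of their 12 bases, and 274, 229 and 115 such groups held all 4 possible last bases. Between libraries, no such match was found between day 4 and either later day, and 1 was found between days 7 and 14. Some values per barcode are therefore also given after such barcodes were summed, which left 2027, 1414 and 601 units. Sums over a whole day do not depend on this.

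Type I interferons signal through the receptor IFNAR1/IFNAR2 and the kinases JAK1 and TYK2 to a complex that holds STAT2 and IRF9 and binds the interferon-stimulated response element (ISRE) near the genes it induces. Interferon gamma uses its own receptor and acts through the GAS element. The induced proteins sense viral nucleic acid, block virus entry and translation, degrade RNA, and feed back on the pathway. In the testis, interstitial and peritubular cells are known to mount this response, whereas germ cells respond poorly.

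The shortest form of the ISRE was looked for in the RefSeq promoter windows (build GRCm38.p6, 250 bases before to 50 after each transcription start), spelled as GAAA and GAAA separated by any 2 bases and searched on both strands. Of the 46 members, 36 had a window, and 19 of these genes (52.8%) held the spelling in at least 1 window, against 3.99% of all 27025 genes in the RefSeq table and 3.76% of those with at least 20 UMIs. The spelling lay in the windows of 15 of the 26 matched members that stood at least 2-fold above both later days on day 4 and in 4 of the 10 matched members that did not. The GAS core, TTC and GAA separated by any 3 bases, was held by 9 of the 36 genes and by 9.55% of all genes. A match to a short spelling is not a shown binding site. The stretches below show the match nearest to the start, in capitals and on the gene's own strand, so that the letters can be compared. The first 4 members stood at least 2-fold above both later days on day 4. The last 3 fell short of this against 1 later day only, Rsad2 against day 7 and Bst2 and Stat2 against day 14. All stretches lay upstream of the start and overlapped no annotated exon.
Isg15, chr4:156200855-156200904, minus strand: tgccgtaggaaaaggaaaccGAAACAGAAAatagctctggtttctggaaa
Ifit1, chr19:34640784-34640833, plus strand: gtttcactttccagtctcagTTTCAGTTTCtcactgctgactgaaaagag
Ifit3, chr19:34583387-34583436, plus strand: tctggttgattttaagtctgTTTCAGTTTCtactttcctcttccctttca
Oas1a, chr5:120907526-120907559, minus strand: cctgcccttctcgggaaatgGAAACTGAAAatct
Rsad2, chr12:26456543-26456592, minus strand: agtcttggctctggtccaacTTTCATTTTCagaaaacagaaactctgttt
Bst2, chr8:71537567-71537616, minus strand: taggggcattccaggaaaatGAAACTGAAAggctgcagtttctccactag
Stat2, chr10:128270256-128270305, plus strand: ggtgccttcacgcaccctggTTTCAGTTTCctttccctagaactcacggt

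Together, the 46 members made up 0.830%, 0.254% and 0.218% of all UMIs on days 4, 7 and 14. Their summed level, in UMIs per 1000000 UMIs of the day (CPM), was 8296, 2539 and 2175. On day 4, Ifitm3 and Ifi27l2a alone held 51.4% of these UMIs. The 27 classical members summed to 1529, 323 and 228 CPM on the 3 days in turn, a ratio of day 4 of 4.73 (interval 4.57 to 4.90) over day 7 and of 6.70 (6.32 to 7.10) over day 14. Most of the difference thus lay between days 4 and 7, and the ratio of day 7 to day 14 was 1.41 (1.32 to 1.51) for the 25 of them with at least 20 UMIs over these days.

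Member by member, 38 of 46 were at least 2-fold higher on day 4 than on day 7, in a table in which 4.33% of 12954 genes with at least 20 UMIs were. Against day 14, 39 of 46 members were at least 2-fold higher on day 4, where 17.6% of 12712 genes were. Both held for 35 members, as for 2.85% of all genes. These shares describe a group chosen with the day 4 level known and support nothing about it. The median log2 ratio was 1.73 over day 7 and 2.63 over day 14, where the median of all genes was -0.09 and 0.05. In 37 members the levels were highest on day 4, next on day 7 and lowest on day 14, and in 40 the day 4 interval was clear of the next level. No member was lowest on day 4. Between days 7 and 14, 17 of the 44 members with enough UMIs were at least 2-fold higher on day 7 (16.6% of all genes) and 3 were at least 2-fold higher on day 14 (12.4% of all genes).

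**Figure D1:**
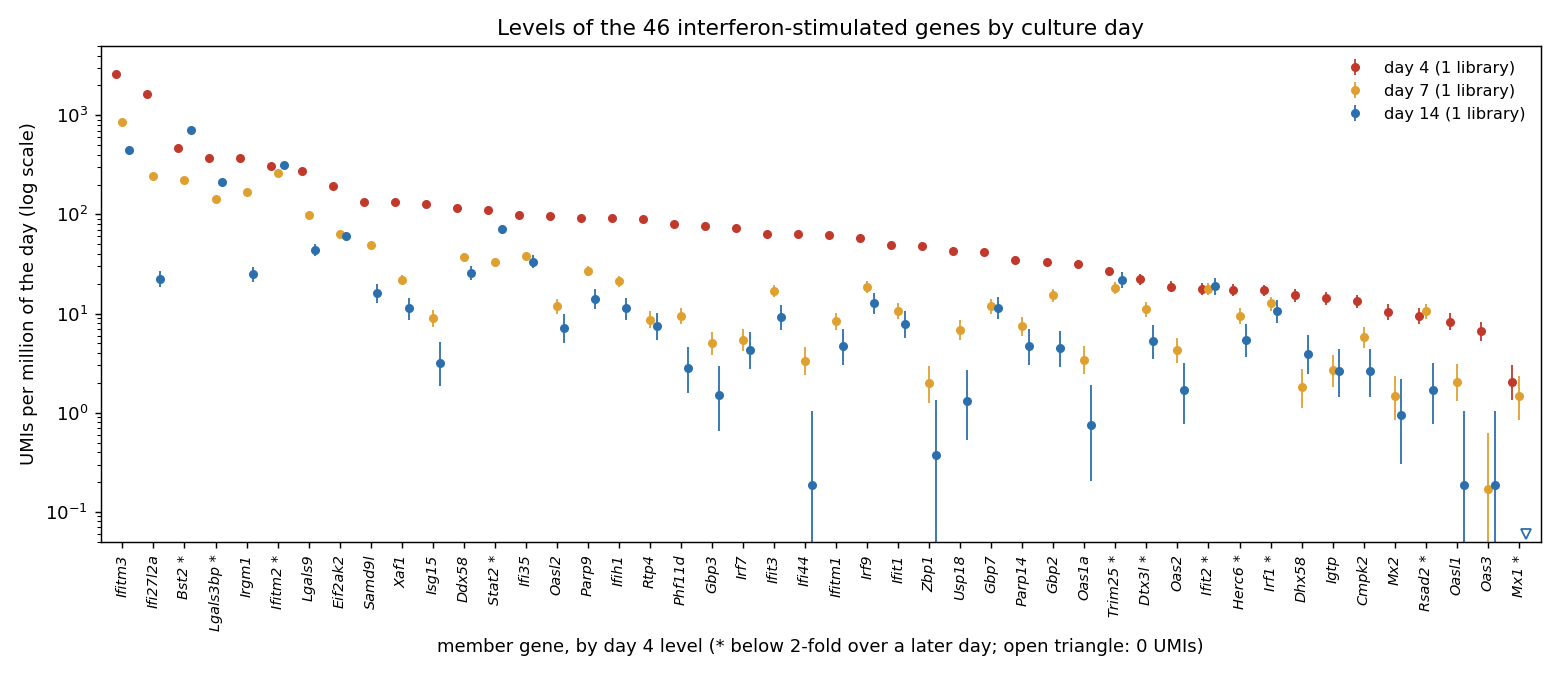
Level of each of the 46 members on days 4 (red), 7 (yellow) and 14 (blue), in CPM on a log axis, with exact 95% Poisson intervals for counting error; each day is 1 library. Red lies above both other colours for 42 members, and the exceptions are Bst2, Ifitm2, Ifit2 and Rsad2.

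The transcription factors of the pathway differed among themselves. Irf7, which amplifies interferon production and response, stood at 73.2, 5.42 and 4.32 CPM on days 4, 7 and 14, the order kept in all lists of levels that follow. Irf9, the DNA-binding part of the complex that binds the ISRE, stood at 58.4, 18.5 and 12.8 CPM. Both were high on day 4 with intervals clear of the later days, by 13.5-fold (10.5 to 17.7) for Irf7 and 3.16-fold (2.71 to 3.69) for Irf9 over day 7. Stat2, the partner of Irf9, was at 110, 33.1 and 70.8 CPM, lowest on day 7, so that day 4 was only 1.55-fold (1.38 to 1.74) above day 14. Irf1, a factor shared with interferon gamma and other signals, was at 17.2, 12.6 and 10.5 CPM, within 2-fold on all days.

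The sensors of viral nucleic acid were all at least 2-fold higher on day 4 than on either later day. Ifih1 (MDA5) and Ddx58 (RIG-I), which detect double-stranded and 5′-triphosphate RNA, stood at 92.0 and 115 CPM on day 4, at 21.1 and 37.5 CPM on day 7 and at 11.3 and 25.7 CPM on day 14. Dhx58 (LGP2), their regulator, had 194, 21 and 21 UMIs. Zbp1, a sensor of Z-form nucleic acid that can start necroptosis, had 611 UMIs early and was nearly gone later, with 23 and then 2 UMIs, or 48.2, 1.98 and 0.376 CPM. The ratio was 24.4 (16.1 to 38.7) over day 7. Eif2ak2 (PKR), the kinase that halts translation on double-stranded RNA, was at 195, 63.2 and 59.9 CPM, with like levels on both later days.

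The oligoadenylate synthetase genes, which make the messenger that activates RNase L, and the related Oasl genes were low and strongly graded. Oasl2 went from 97.3 CPM to 11.9 and 7.14 CPM, and Oas1a from 31.5 CPM to 3.44 and 0.751 CPM. Oas2 had 237, 50 and 9 UMIs, Oasl1 had 105, 24 and 1, and Oas3 had 84, 2 and 1. Summed, the 5 genes were 7.44-fold (6.52 to 8.50) higher on day 4 than on day 7 and 16.3-fold (12.4 to 21.9) higher than on day 14. Oas1a has close relatives beside it on chromosome 5 (Oas1a itself at chr5:120896256-120907521, GENCODE M21 on GRCm38), so the split of reads among them is uncertain.

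Isg15, the ubiquitin-like protein that is joined to other proteins, stood at 126, 9.03 and 3.19 CPM. The day 4 level was 14.0-fold (11.5 to 17.2) above day 7 and 39.6-fold (24.6 to 68.1) above day 14. Usp18, which removes ISG15 and damps the receptor, had a similar course, at 43.0, 6.88 and 1.31 CPM. Herc6, the mouse ligase for ISG15, was more weakly graded at 17.3, 9.55 and 5.45 CPM, and its 1.81-fold (1.43 to 2.30) ratio over day 7 fell short of 2. Trim25, a ligase that acts with RIG-I, varied little, at 26.8, 18.0 and 22.0 CPM.

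The IFIT family, whose proteins bind foreign RNA, lies in 1 cluster on chromosome 19, and its members split. Ifit1 (chr19:34640871-34650009) was at 49.3, 10.7 and 7.89 CPM and Ifit3 (chr19:34583531-34588731) at 64.1, 16.9 and 9.20 CPM. Ifit2 (chr19:34550694-34576419), the direct neighbour of Ifit3, was flat, at 17.7, 17.5 and 19.0 CPM with overlapping intervals. Ifit3 and its near copy Ifit3b can share reads, and Ifit3b had 235, 77 and 9 UMIs, so values of Ifit3 are uncertain in that respect.

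Among the GTPases, Irgm1, which acts on vacuoles and autophagy, held most UMIs and was still well seen on day 7, at 370 and 170 CPM before a count of 133 UMIs on day 14, which puts day 4 at 14.8-fold (12.5 to 17.7) above day 14. Gbp3 had 962, 59 and 8 UMIs, so most of its difference lay before day 7, and Gbp2 was at 33.4, 15.4 and 4.51 CPM. The ratio of day 4 to day 7 was thus 2.18 (2.06 to 2.29) for Irgm1 and 15.0 (11.5 to 19.8) for Gbp3. Gbp7 was at 41.4, 11.9 and 11.5 CPM and Igtp at 14.3, 2.67 and 2.63 CPM. Guanylate-binding proteins have close paralogues, so reads could be split among them. Mx1 and Mx2, whose proteins trap viral nucleocapsids, were rare, with 26, 17 and 0 UMIs for Mx1 and 132, 17 and 5 UMIs for Mx2. Mx1 on day 4 was at least 3.64-fold higher than the limit of 3 UMIs that a count of 0 allows on day 14. C57BL/6 mice carry a defective Mx1 gene.

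The restriction factors of the membrane gave the highest levels and the clearest exceptions. Ifitm3, which blocks fusion of viruses in endosomes, stood at 2633, 852 and 451 CPM and had a UMI in 97.1%, 83.6% and 67.9% of barcodes. Its neighbour Ifitm2 on chromosome 7 was at 306, 260 and 312 CPM, a ratio of 1.18 (1.12 to 1.24) over day 7 and 0.981 (0.926 to 1.04) over day 14, whereas Ifitm1 went from 61.6 to 8.34 and 4.70 CPM. Bst2 (tetherin), which holds budding virus at the cell surface, was at 466, 225 and 704 CPM, lowest on day 7 and highest on day 14. The intervals of Bst2 on the 3 days did not overlap, and day 14 was above day 4, whose ratio to it was 0.661 (0.635 to 0.689). The Ifitm genes resemble each other in sequence, so their split is uncertain as well.

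Ifi27l2a, a small membrane protein gene of the mouse interferon response, held the most UMIs after Ifitm3 on day 4 and few on day 14. It stood at 1631, 245 and 22.4 CPM, that is 6.67-fold (6.41 to 6.94) above day 7 and 73.0-fold (60.9 to 88.1) above day 14. It had a UMI in 85.5% of day 4 barcodes, 43.8% of day 7 barcodes and 7.30% of day 14 barcodes. In barcodes thinned to 1500 UMIs each, which leaves out 753, 429 and 179 shallower ones, these shares were 79.8%, 28.6% and 2.52%. With matching barcodes summed, 1832 of 2027, 764 of 1414 and 66 of 601 units had a UMI of it, in the same order. Ifi44 went from 809 UMIs to 39 and 1, Xaf1 from 1689 to 254 and 60, Phf11d from 1022 to 111 and 15, and Rtp4 from 1132 to 101 and 40. All of these were more than 5-fold higher on day 4 than on day 7. Ifi35 and Samd9l were nearer, at 2.59-fold (2.33 to 2.89) and 2.76-fold (2.51 to 3.04). Because no cell type here is known to lack these genes, the share of barcodes with a UMI from free RNA alone could not be measured.

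The PARP group, Parp9 with its partner ligase Dtx3l and Parp14, belongs to the ADP-ribosyltransferase family and its partners. Parp9 and Parp14 stood at 92.1 and 34.7 CPM on day 4 and at 26.9 and 7.48 CPM on day 7. Dtx3l was at 22.1, 11.1 and 5.26 CPM, and with 1.99-fold (1.61 to 2.47) over day 7 lay just outside the 2-fold line that Bst2, at 2.07-fold, and Gbp2, at 2.17-fold, lay just inside. Lgals9, a galectin that regulates T cells, was at 277, 98.9 and 43.9 CPM. Lgals3bp, a secreted galectin ligand, was at 370, 145 and 214 CPM, so it was lowest on day 7. Against day 14, the members nearest the 2-fold line were Ifi35, inside it at 3.00-fold, and Lgals3bp, outside it at 1.73-fold.

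The 11 members that did not stand 2-fold above both later days fell into several patterns. In Ifit2, Ifitm2, Irf1 and Trim25 day 4 was below 2-fold over both days. Rsad2, Mx1, Herc6 and Dtx3l fell short against day 7 only. Bst2, Stat2 and Lgals3bp fell short against day 14 only, and the same 3 genes had a lower level on day 7 than on days 4 and 14, as had 5 other members. Under the other ways of processing that were tried, the 35 members kept their place except with a pseudocount of 10 CPM, which removed 7 low genes, and without cells bearing macrophage or endothelial markers, which removed Ifit3, Gbp2 and Cmpk2.

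**Figure D2:**
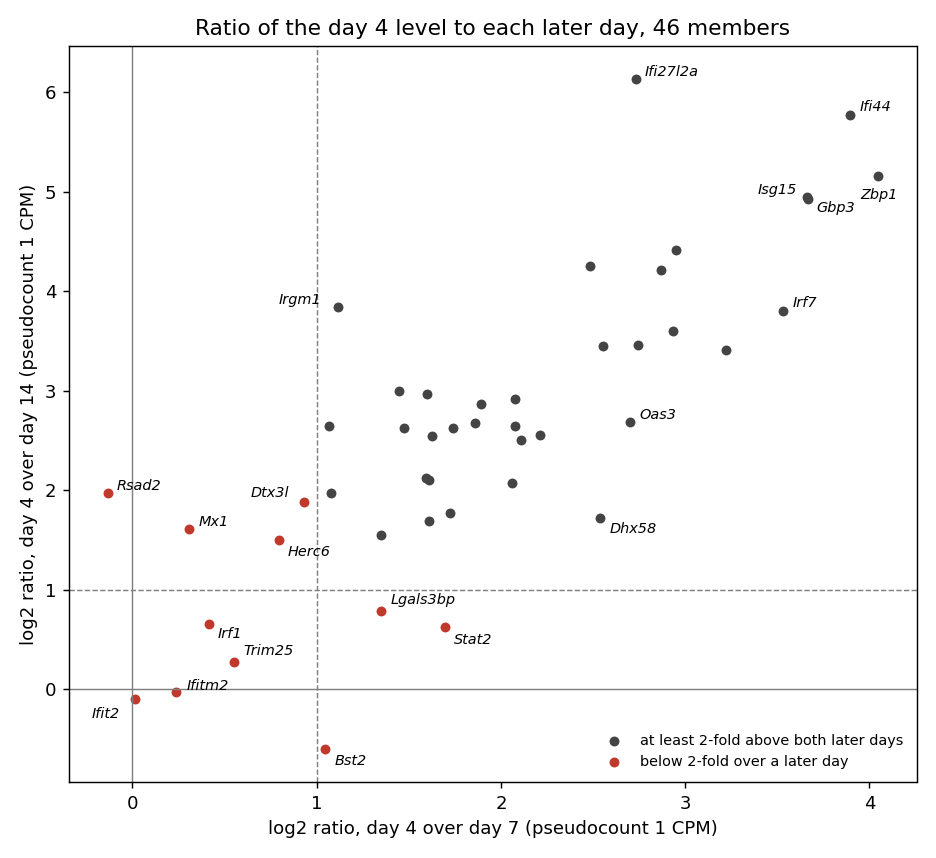
Log2 ratio of the day 4 level to day 7 (horizontal) and to day 14 (vertical) for each member, with a pseudocount of 1 CPM; dashed lines mark 2-fold and solid lines equal levels. The 11 members in red are below 2-fold over at least 1 later day; Ifit2 and Ifitm2 lie near the crossing of equal levels and Bst2 lies below the horizontal one.

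Rsad2 (viperin), which makes a chain-terminating nucleotide, and its neighbour Cmpk2 were a special case, because their day 7 level came from very few barcodes. Rsad2 had 121, 123 and 9 UMIs, and 98 of the 123 lay in 2 of the 2171 day 7 barcodes. These barcodes had 4172 and 20468 UMIs, 1953 and 4847 detected genes, and 105 and 410 UMIs of classical members, which is 252 and 200 per 10000 UMIs where the next barcode of the day had 69.4. Neither had a barcode that matched it in the first 11 bases, and neither held a UMI of Lyz2 or Ptprc. Col1a1, a collagen of stromal cells, had 33 and 38 UMIs, and the myofibroblast gene Acta2 had 3 and 58. Mitochondrial UMIs made up 6.21% and 1.59% of their UMIs, and their cell type was not tested. They also held 61 of the 70 day 7 UMIs of Cxcl10, an interferon-induced chemokine.

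These 2 barcodes, which made up 0.212% of the day 7 UMIs, held 13.7% of the classical UMIs. They held 16 of 17 UMIs of Mx1, 48 of 67 of Cmpk2, 107 of 197 of Ifit3, 54 of 124 of Ifit1 and 9 of 24 of Oasl1. Some members took little part: Ifi27l2a had 1 UMI in them, Irf9 and Ifitm1 had 0, and Ifitm3 had 40 of 9908. The barcodes were picked by their share of classical UMIs, and Ifi27l2a and Ifitm3 are not classical members. High shares of classical members in them are therefore part of the choice, and the contrast is a description only. Without the 2 barcodes, the ratio of day 4 to day 7 became 4.43 (2.86 to 7.11) for Rsad2, 8.09 (5.02 to 13.8) for Cmpk2, 8.26 (6.64 to 10.4) for Ifit3 and 8.17 (6.38 to 10.6) for Ifit1, and 41 of 46 members were at least 2-fold higher on day 4 than on day 7. Rsad2, Mx1 and Dtx3l then joined the members above both later days. The summed classical level of the rest of day 7 was 280 CPM, 5.47-fold below day 4.

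**Figure D3:**
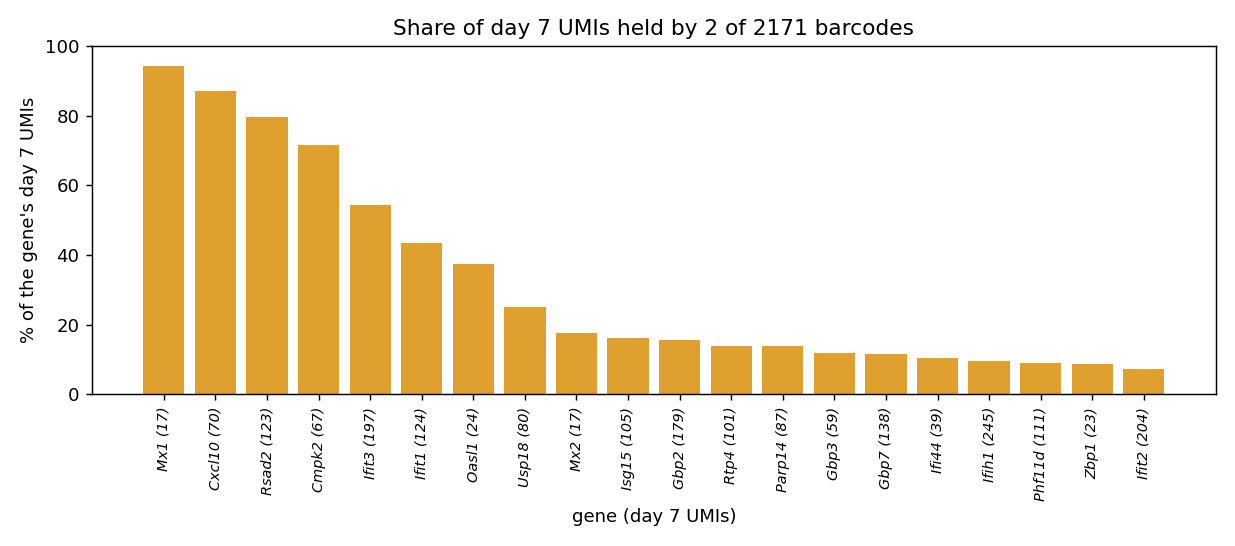
Share of each gene's day 7 UMIs, in percent, that lay in the 2 of 2171 barcodes with the highest classical share, for the 20 genes with the largest share among the members and Cxcl10; the day 7 UMIs of the gene are in parentheses. Mx1, Cxcl10, Rsad2, Cmpk2 and Ifit3 have most of their UMIs in these barcodes.

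On day 4, most barcodes held at least 1 classical UMI at equal depth. Thinned to 1500 UMIs per barcode, 16.4% of 2227 day 4 barcodes had no classical UMI, 24.7% had 1, 46.2% had 2 to 4 and 12.7% had 5 or more. On day 7, 70.0% of 1742 thinned barcodes had none and 0.287% had 5 or more. On day 14, 71.8% of 794 had none and 0.126% had 5 or more. The variance of this count was 1.66 times its mean on day 4, 4.70 times on day 7 and 1.24 times on day 14. The day 7 value includes the 2 high barcodes. The 5% of barcodes with the most classical UMIs held 16.5%, 39.0% and 33.4% of them. The mean count was 2.27, 0.446 and 0.365 UMIs per thinned barcode. The share at 0 and the share in the top 5% depend on this mean, so alone they do not measure concentration in few barcodes. With matching barcodes summed before thinning, the share with no classical UMI was 16.5%, 70.2% and 71.9%, and the variance was 1.69, 4.11 and 1.44 times the mean. The median thinned barcode had a UMI of 7 of the 46 members on day 4, of 3 on day 7 and of 2 on day 14.

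**Figure D4:**
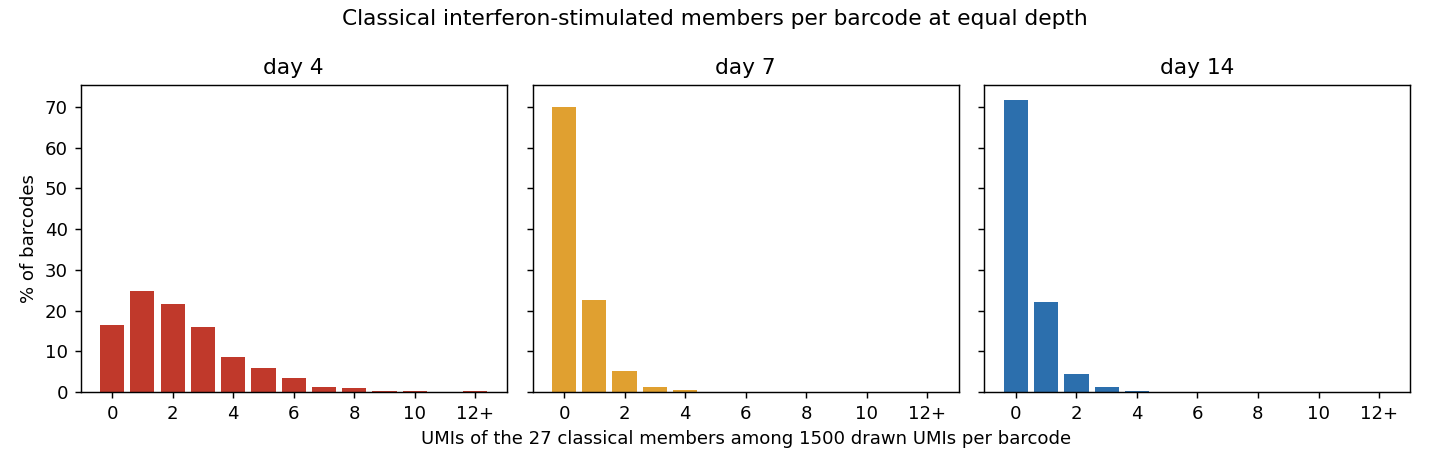
Percent of barcodes by the number of UMIs of the 27 classical members among 1500 UMIs drawn from each barcode, on days 4, 7 and 14; the last bar pools 12 or more. Day 4 spreads from 0 to about 8 with 16.4% at 0, whereas 70.0% and 71.8% of barcodes are at 0 on the later days.

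The classical level on day 4 differed little between barcodes with and without markers of other classes. Barcodes with at least 2 UMIs of mitotic genes had 1514 CPM of the classical members and the others 1535 CPM, a ratio of 0.986 (0.956 to 1.02). Barcodes with a Sca1 (Ly6a) UMI had 1574 CPM against 1417 CPM, a ratio of 1.11 (1.08 to 1.15), and those with a UMI of a Leydig gene (Cyp17a1, Cyp11a1, Hsd3b1, Star or Insl3) had 1616 against 1452 CPM, also 1.11 (1.08 to 1.14). A germ cell marker (mostly Prm1, a sperm gene, at 689 UMIs) was seen in 232 day 4 barcodes, whose ratio was 1.03 (0.993 to 1.08). Barcodes with these markers were deeper, so the split was repeated in thinned barcodes, where the ratio was 0.960 (0.890 to 1.04) for mitotic genes, 1.06 for Leydig genes with an interval that included 1, 1.07 for Sca1 with an interval just above 1 and 1.01 (0.859 to 1.18) for germ cell markers. Of the 9 marker lists, the macrophage list gave the highest ratio, at 1960 CPM in 47 barcodes against 1515 CPM as counted and at 1.43 (1.02 to 1.96) in 12 thinned barcodes. The highest day 4 barcode, at 94.3 classical UMIs per 10000, held 47 of the 52 Lyz2 UMIs and 68 of the 163 UMIs of the chemokine Ccl5.

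Markers of other cell types moved between days as well. The 9 macrophage markers summed to 10.6, 28.5 and 240 CPM, with 1, 2 and 1 of them at 0. Most of this sum was Lyz2, at 4.10, 19.4 and 199.6 CPM. Csf1r, at 2.76, 2.32 and 1.88 CPM, and C1qb, with 9, 4 and 0 UMIs, had the same order of days as most members. Of the 5 macrophage markers with at least 20 UMIs over days 7 and 14, 4 were at least 2-fold higher on day 14 (12.4% of all genes). Against day 14, 0 of 5 were at least 2-fold higher on day 4 (17.6% of all genes). The 4 T and NK cell markers had 4, 1 and 0 UMIs, and the plasmacytoid dendritic marker Siglech had 0, 0 and 1. Of the 5 endothelial markers, Cdh5 was broadly seen, with 985, 1292 and 119 UMIs, while Pecam1 had 25, 26 and 0, Kdr 19, 2 and 0, Tie1 4, 0 and 0 and Vwf 2, 0 and 1, so that Kdr and Tie1 were highest on day 4 as the members were. The 4 germ cell markers summed to 83.2, 14.4 and 31.2 CPM and were also highest on day 4, with Prm1 at 54.3, 8.43 and 18.0 CPM and Prm2 at 28.6, 5.68 and 11.1 CPM. The 4 myofibroblast markers summed to 4910, 4437 and 315 CPM. Without every barcode that bore a macrophage or endothelial marker, 35 members were at least 2-fold higher on day 4 than on day 7, with a median log2 ratio of 1.57. On day 4, 985 of the 1035 endothelial UMIs were of Cdh5. The 754 day 4 barcodes with an endothelial marker had a median of 5562.5 UMIs and the other 2226 a median of 2339.5. The step thus removed deeper barcodes as well, so it cannot tell the part of other cell types. The mix of cells changed as well: the 5 Leydig genes went from 231 to 449 and 7524 CPM and the 8 mitotic genes from 837 to 775 and 120 CPM, and the part of these changes in the course of the members was not tested.

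Across the 2980 day 4 barcodes, the members went together weakly. Over 300 pairs of the 25 classical members with at least 100 day 4 UMIs, Pearson's r of the log-scaled UMIs per 10000 had a mean of 0.060 and ranged from -0.01 to 0.26, and 292 pairs were above 0. The points share 1 library, sparse counts and the depth of each barcode. Thinned to 1500 UMIs, the mean was 0.0201, and with matching barcodes summed it was 0.0764. Over all pairs of the 7063 other genes with at least 100 UMIs and no more than the highest classical member, the mean was 0.0140 as counted and 0.000348 after thinning. The share of pairs above 0.1 was 14.7% among the classical members and 0.119% among those genes, and after thinning it was 0.667% and 0.0467%, so most of the high values as counted were not kept at equal depth. The highest pairs were Ifit1 with Ifit3 at 0.26, Ifi27l2a with Ifitm3 at 0.20 and Ifit1 with Irgm1 at 0.18.

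Detection at equal depth was looked at for several pairs on day 4, and only for Ifit1 with Ifit3 were the intervals apart. Among thinned day 4 barcodes, Ifit3 had a UMI in 21.9% (15.7 to 29.3) of the 155 with Ifit1 and in 7.19% (6.12 to 8.39) of the 2072 without it. Isg15 and Oasl2 showed no such tie, since Oasl2 had a UMI in 10.2% (7.30 to 13.8) of the 362 barcodes with Isg15 and in 12.2% (10.7 to 13.7) of the others. On day 7 the mean r over the classical pairs was 0.104, and without the 2 high barcodes it was 0.0649. The highest day 7 pair was Cmpk2 with Rsad2 at 0.575, both of which rest on those barcodes. On day 14 the mean was 0.0312, and the highest pair, Mx2 with Oasl1 at 0.451, rests on 1 UMI of Oasl1. The same genes were used on all days, picked by at least 100 UMIs on day 4, and several were sparse later. The means of the days are therefore not compared.

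Set against the summed classical members with its own UMIs left out, a member's r on day 4 had a median of 0.119 over the 44 members with at least 100 UMIs, where the median of 8452 other genes was 0.0254 and their 99th percentile 0.106. It was above that percentile in 25 members. Ifit3 at 0.247, Irgm1 at 0.244, Ifit1 at 0.210 and Isg15 at 0.185 were highest. At the low end were Ifitm1 at -0.0251, Irf1 at 0.0321, Oas1a at 0.0333 and Ifit2 at 0.0380. Of the 34 members here that stood 2-fold above both later days, 24 were above the 99th percentile, with a median of 0.130, and of the 10 that did not, 1 was, with a median of 0.0716. That member was Bst2, at 0.132, while Ifi27l2a, with its 73.0-fold excess over day 14, had 0.0625. In thinned barcodes the median over the members was 0.0606, and 23 of 44 were above the 99th percentile of the other genes, 21 of the 34 and 2 of the 10. These 2 were Rsad2, at 0.0652, and Herc6, at 0.0643. Bst2, at 0.0580 when thinned, was below that percentile of 0.0593, so its place above it was not kept at equal depth. The sum was itself made mostly of 1 side of this split, since 22 of the 27 classical members stood 2-fold above both later days. Few UMIs also limit r, as with Rsad2 at 121 and Irf1 at 218 among the 10 and Oasl1 at 105 among the 34. The split is therefore a description and no test.

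Of the genes that are not members and had at least 200 UMIs on day 4, the 10 most like the classical sum over the 2980 barcodes were Trim30a at 0.206, Ifi204 at 0.193, Iigp1 at 0.188, Csf1 at 0.171, S100a4 at 0.167, Plac8 and Timp1 at 0.164 each, Fbln2 at 0.162, Ifi203 at 0.159 and Tor1aip1 at 0.155. Trim30a, Ifi204, Iigp1 and Ifi203 are themselves interferon-inducible. The lowest was Smoc2, a matrix protein gene, at -0.151.

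**Figure D5:**
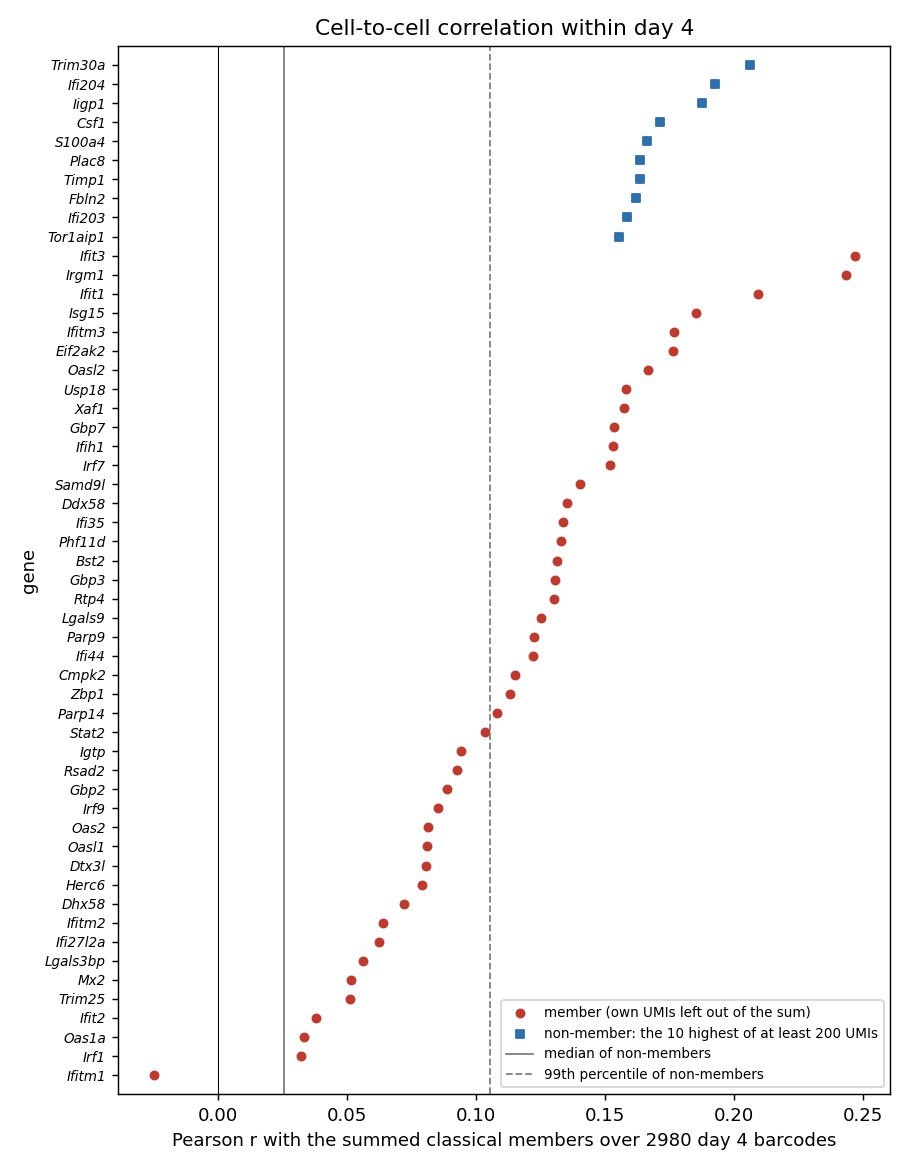
Pearson's r of each gene with the summed classical members over 2980 day 4 barcodes, for 44 members (red, own UMIs left out) and the 10 other genes with the highest r (blue squares); grey lines mark the median and the 99th percentile of 8452 other genes. Of the members, 25 lie right of the dashed line at 0.106 and Ifitm1 lies below 0.

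On day 14, the members were compared between cells with and without a UMI of Cyp17a1, the enzyme that makes androgen precursors. The 242 barcodes with it had a median of 6057 UMIs and the other 731 a median of 2885. Bst2 was at 833 CPM in the former and 624 CPM in the latter, a ratio of 1.34 (1.25 to 1.42), and Stat2 was at 88.4 and 59.8 CPM, a ratio of 1.48 with an interval above 1. Ifitm3 went the other way, at 304 and 543 CPM, or 0.560 (0.510 to 0.613), as did Ifitm2, at 235 and 360 CPM, and Lgals9, at 27.8 and 54.0 CPM. Of 31 members with at least 20 UMIs on day 14, the interval lay above 1 in 2 and below 1 in 8, where it lay above 1 in 9.71% and below 1 in 11.7% of all 10375 genes with as many UMIs. The classical members as a sum did not differ beyond counting error, at 221 and 233 CPM with a ratio of 0.947 (0.841 to 1.07). Reads of 1 library are compared here, not replicates.

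Genes that stand upstream of the members were looked at in the same way. Of 10 interferon genes listed, only Ifng had a row in the merged table, and it had 0 UMIs on each day. The receptor chains were detected throughout, with Ifnar1 at 41.1, 50.7 and 29.3 CPM and Ifnar2 at 80.8, 97.4 and 177 CPM, the latter highest on day 14. The negative regulators Socs1, with 66, 41 and 31 UMIs, and Socs3, with 75, 50 and 31, were within 2-fold. Of 15 sensing genes, 6 were at least 2-fold higher on day 4 than on day 14 (17.6% of all genes) and 1 was so against both later days (2.85% of all genes). This was Samhd1, a nucleotide hydrolase, at 68.0, 32.3 and 19.2 CPM. The adaptors Tmem173 (STING) at 54.3, 41.5 and 13.7 CPM and Mavs at 4.97, 5.85 and 7.51 CPM, and the factor Irf3 at 37.9, 35.5 and 35.7 CPM, were not.

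A list of further interferon-stimulated genes, drawn up with results of these data known, had 48 genes with enough UMIs, of which 26 stood 2-fold above both later days on day 4, as 2.85% of all genes did. Trim30a was at 115, 27.6 and 13.3 CPM and Psmb8, an immunoproteasome subunit, at 97.8, 19.5 and 15.4 CPM. Ly6a, which encodes the Sca1 used to sort the cells and is itself interferon-inducible, was at 523, 64.2 and 358 CPM and so was lowest on day 7, as Stat2 and Bst2 were. Ly6e, another gene of the Ly6 family, at 518, 287 and 696 CPM, had the same order of days as Bst2. Of the antigen presentation genes, B2m was at 3546, 3797 and 4555 CPM and Tapbp at 120, 128 and 192 CPM, both highest on day 14. Cxcl10 had 34, 70 and 0 UMIs, and 61 of the 70 lay in the 2 day 7 barcodes described above.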

How the data were processed

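The authors deposited counts of UMIs per gene and cell barcode for 3 Drop-seq libraries, 1 per culture day, as a table per day and a merged table of all days; the merged counts were used. Per the study's methods, reads were aligned to GRCm38 with STAR and Drop-seq tools, and cells with fewer than 500 detected genes or more than 10% mitochondrial UMIs were removed. The submitters' processing notes name STAR 2.5.2a, Picard 2.6.0 and SAMtools 1.2. The annotation release was not given in the sources used here. The merged table also held 495 per-cell columns of no sample of this series, which were not used. The counts over the list of receptor and signalling genes are not reported here.

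The members and lists were chosen with earlier results of these data known. All 46 members were named in the text, lists were given by counts with a few examples, and outside genes were named by the 10 highest correlations on day 4 among genes with at least 200 UMIs. UMIs were summed per day and divided by the day's total (CPM). A ratio needed 20 UMIs over both days, and log2 ratios used a pseudocount of 1 CPM. Intervals are exact at 95% (Poisson for levels, Clopper-Pearson for shares, conditional binomial for ratios). For correlations, the natural log of 1 plus UMIs per 10000 was used. Thinning drew 1500 UMIs per barcode without replacement. Doublets were not called; the 6% of barcodes with the most UMIs were left out as an alternative. The barcodes were not filtered further. Gene positions came from GENCODE M21 and promoter windows from RefSeq. Scripts were tested on simulated data and used SciPy 1.17.1, NumPy 2.4.6 and pandas 2.3.3 under Python 3.11.15, with figures from matplotlib 3.10.9.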

Additional observations from a re-analysis of the deposited data

How the results depend on the processing

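The median log2 ratios over the members kept their sign under 9 other ways of processing and without the 2 high day 7 barcodes, an alternative chosen after seeing the data. A count of members has no direction to change. The number of members below 2-fold over a later day ranged from 8 to 18. The highest was with a pseudocount of 10 CPM, which also lowered the median log2 ratio to 1.33 over day 7 and 1.60 over day 14, because it shrinks the ratios of genes at low levels. Without barcodes bearing macrophage or endothelial markers, the median over day 7 was 1.57, and the log2 ratio of Cmpk2 over day 7 turned from above 0 to -0.17; the cause was not tested. Of 920 log2 ratios of single members under these settings, 740 lay within the counting interval, 179 lay outside it and 1 changed sign. Of the 179, 71 came from the pseudocount of 10 CPM. Dropping the minimum of UMIs changes no single ratio, so its 92 ratios, of which 90 lay within and 2 outside, tell nothing about stability. The mean r over classical pairs on day 4 was 0.112 as Spearman's rho and 0.0201 in thinned barcodes, against 0.060, and was within 1.5 times of it under the other settings, except for 0.0213 in barcodes summed and then thinned. Summing barcodes was also chosen after seeing the data. No paired analysis was possible because each day was 1 library, and for the same reason no replicate could be left out. Depth limits the rare members most: Mx1, Oas3, Oasl1 and Mx2 rest on fewer than 200 UMIs over the 3 days.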

Other observations

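The 495 columns of no sample in the series were not read, and no value from them is given. In the day tables before the cell filter, which held 3300, 2400 and 1300 barcodes, the interferon genes other than Ifng were looked for again, and Ifnz had 1 UMI on day 4 and 1 on day 7. Barcodes that matched in their first 11 bases resembled each other: for Ifi27l2a on the log scale, the standard deviation within such groups was 0.634 on day 4, where it was 1.04 over all barcodes of at least 1500 UMIs, with 631 barcodes in 192 groups. On day 7 these values were 0.676 and 0.915, and on day 14 they were 0.195 and 0.332.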
